A study of Mus musculus with 18 samples.

Results

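The genes described here encode the muscle side of the neuromuscular junction: the acetylcholine receptor subunits Chrna1, Chrnb1, Chrnd, Chrne and Chrng, the receptor-clustering proteins Musk, Lrp4 and Rapsn, and the synaptic esterase Ache with its collagen anchor Colq. They were chosen by name, as every non-control probe of the array assigned to 1 of these 10 genes, of 35527 gene names in all. This gave 14 probes of the 55681 probe names, with a pair each for Chrna1, Musk, Colq and Ache and 1 for each other gene. RNA was measured on 18 single-colour Agilent arrays, 3 for each of nuclei and cytoplasm from myofibers of 3 muscles: the fast extensor digitorum longus (EDL), the slow soleus and the mostly fast tibialis anterior (TA). Every sample came from wild-type CD1 female mice, 3 months old, 9 mice in all, and no treatment is named. A TA nuclei sample came from 1 mouse and most others from 2. A sample was a pool of 5 to 10 fibers freed with collagenase, so that the motor nerve was cut and each pool held the few synaptic nuclei its fibers carried. Per the labels, the EDL and soleus pools of the same number came from the same pair of mice. In TA, cytoplasm 1 and 2 shared mouse 5, cytoplasm 1 and nuclei 1 shared mouse 1, and cytoplasm 2 and nuclei 2 shared mouse 2. Mouse 5 was also in pool 2 of EDL and soleus, and mouse 3 was in their pool 1 and in TA nuclei 3. The arrays were therefore not all independent animals, also between TA and the other muscles.

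At the junction, motor nerve terminals release acetylcholine onto a small patch of the muscle membrane packed with its receptor. The nerve also releases agrin, which binds LRP4 and activates the kinase MuSK, and rapsyn, the product of Rapsn, then anchors the receptors in clusters. The receptor is a pentamer whose gamma subunit is replaced by epsilon after birth, and in innervated adult fibers these genes are transcribed mainly by the nuclei under the synapse. Denervation is known to raise Chrna1, Chrnd, Chrng and Musk along the whole fiber, through E-box-binding factors such as myogenin, while neuregulin and agrin signals act on Chrne through an N-box bound by ETS factors.

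Probe sequences are shown for the receptor subunits Chrna1 and Chrng, which were higher in TA nuclei, and for Musk and Colq, whose probes gave unlike results. Each probe is 60 bases, and only the first 30 are printed where a probe was not shown whole. Probe positions are those of mouse build mm9, as the array files give them. Chrna1 was read by a probe at chr2:73404112-73404171 on the minus strand, which starts at base 1454 of its transcript, and by another at chr2:73401389-73401448, which starts at base 4177. The Chrng probe spans an exon junction at chr1:89106072-89106353 on the plus strand. The Musk probes lie at chr4:58386538-58386597 and chr4:58387070-58387129 on the plus strand, and start at bases 2709 and 3316 of the transcript. The Colq probes lie at chr14:32336270-32336329 and chr14:32341463-32341522 on the minus strand, and start at bases 2775 and 1275.
Chrna1, probe A_52_P533707, first 30 bases: agaggaaggtctgtctccttgaatcctttc
Chrna1, probe A_55_P2130987, first 30 bases: gtcagttgatctaattctttagctttttct
Chrng, probe A_51_P288010: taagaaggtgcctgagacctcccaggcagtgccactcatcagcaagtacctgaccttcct
Musk, probe A_51_P334419, first 30 bases: atcctgcagcgcatgtgcgagagagcagag
Musk, probe A_55_P2130600, first 30 bases: gtttagttcttccttgcacagaatatgtaa
Colq, probe A_55_P2043337, first 30 bases: ttccggggcttctgggtgggcaaacaagga
Colq, probe A_55_P2068784: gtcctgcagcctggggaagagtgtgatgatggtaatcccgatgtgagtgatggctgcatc

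Promoters are shown for Chrna1 and Chrng as well, and for Chrne, which was lower there. RefSeq promoters of build GRCm38.p6 were matched for 6 of the 10 genes, as the 250 bases before the start of the gene, and capitals mark E-boxes (CANNTG) and the N-box (CCGGAA), each searched on both strands. The Chrna1 promoter, chr2:73580339-73580588 on the minus strand, held 3 E-boxes, at 92, 73 and 44 bases before the start. The Chrng promoter, chr1:87205561-87205810 on the plus strand, held 3, at 155, 132 and 75 bases. The Chrne promoter, chr11:70619195-70619444 on the minus strand, held 1 E-box at 138 bases and the N-box at 76 bases. Chrnb1 and Musk each held 3 E-boxes and Ache 1. Of all 32851 promoters in the same table, 66.2% held an E-box, 12.2% held 3 or more, and 12.03% held an N-box, and a match describes only the letters in this window.
Chrna1: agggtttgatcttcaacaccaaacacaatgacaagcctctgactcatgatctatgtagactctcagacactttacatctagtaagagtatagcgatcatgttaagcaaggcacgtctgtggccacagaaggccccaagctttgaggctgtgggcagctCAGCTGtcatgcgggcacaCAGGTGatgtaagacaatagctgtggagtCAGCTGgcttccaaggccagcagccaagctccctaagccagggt
Chrng: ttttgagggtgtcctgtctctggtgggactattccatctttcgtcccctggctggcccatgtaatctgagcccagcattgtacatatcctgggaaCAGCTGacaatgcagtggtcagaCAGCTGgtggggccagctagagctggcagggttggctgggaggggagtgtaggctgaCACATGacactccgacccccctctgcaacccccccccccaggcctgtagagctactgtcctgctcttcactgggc
Chrne: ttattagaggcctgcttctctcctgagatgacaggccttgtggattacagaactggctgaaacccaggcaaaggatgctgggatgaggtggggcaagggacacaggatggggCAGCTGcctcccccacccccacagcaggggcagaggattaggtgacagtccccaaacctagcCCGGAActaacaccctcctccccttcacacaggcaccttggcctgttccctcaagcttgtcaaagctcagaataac

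The arrays measured most spots. The flag for positive and significant signal held for 78.9% to 89.3% of spots per array, and 58.6% to 71.2% were well above background. Slides were not spread over the groups. Slide 1 held the cytoplasm arrays of EDL and soleus together with TA cytoplasm 1. The EDL and soleus nuclei shared slide 2. Slide 3 held TA cytoplasm 3, and slide 4 the TA nuclei and TA cytoplasm 2. Within EDL and soleus, fraction and slide cannot be told apart, nor can TA nuclei and slide when set against the other nuclei. TA cytoplasm 1 stood apart from its group: over 35528 probes it correlated at 0.956 to 0.961 with the EDL cytoplasm arrays on its own slide, and at 0.906 to 0.922 with TA cytoplasm 2 and 3, which correlated with each other at 0.970. The main results on TA cytoplasm are also given without it. Values are log2 of the background-corrected intensity after quantile normalization, and a difference is therefore relative to the rest of the RNA on each array. As the samples were pools, fewer nuclei that express a gene and less RNA per nucleus cannot be told apart.

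Between muscles, the largest differences among the members were those of Chrna1, Chrnd and Rapsn. In TA nuclei, Chrna1 (A_52_P533707), Chrnd, Chrng and Rapsn were higher than in EDL nuclei and than in soleus nuclei. Chrne and Ache were lower than in EDL nuclei, and Colq (A_55_P2043337) was lower than in both. Chrna1 A_55_P2130987 was called higher only against EDL nuclei, and Colq A_55_P2068784 was called lower only against soleus nuclei. Of the 14 probes, 6 were higher and 4 lower in TA than in EDL nuclei at an adjusted p under 0.05 by limma, where 17.4% of all probes tested passed, 7.59% higher and 9.81% lower. Between TA and soleus nuclei 4 were higher and 3 lower of 14, against 19.6% of all probes, 7.75% higher and 11.9% lower. In cytoplasm, 3 were higher and 3 lower of 13 between TA and EDL, against 12.4% of all probes, 5.12% higher and 7.33% lower. Between TA and soleus cytoplasm 2 were higher and 1 lower of 13, against 28.6% of all probes, 15.8% higher and 12.8% lower. Soleus and EDL nuclei differed in 1 of 14 probes (1.56% of all probes), and their cytoplasm in 0 of 13 (1.42%), where 4 of the 13 had an unadjusted p under 0.05. Groups of 3 arrays often did not overlap. In nuclei this held for 59.3% of all probes between TA and EDL, 60.1% between TA and soleus and 39.1% between soleus and EDL. In cytoplasm it held for 22.8%, 30.5% and 16.1%, in the same order. Between fractions it held for 66.3% in EDL, 56.5% in soleus and 60.2% in TA. Between nuclei and cytoplasm within a muscle, the members called were Musk, Lrp4 and Colq.

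**Figure D1:**
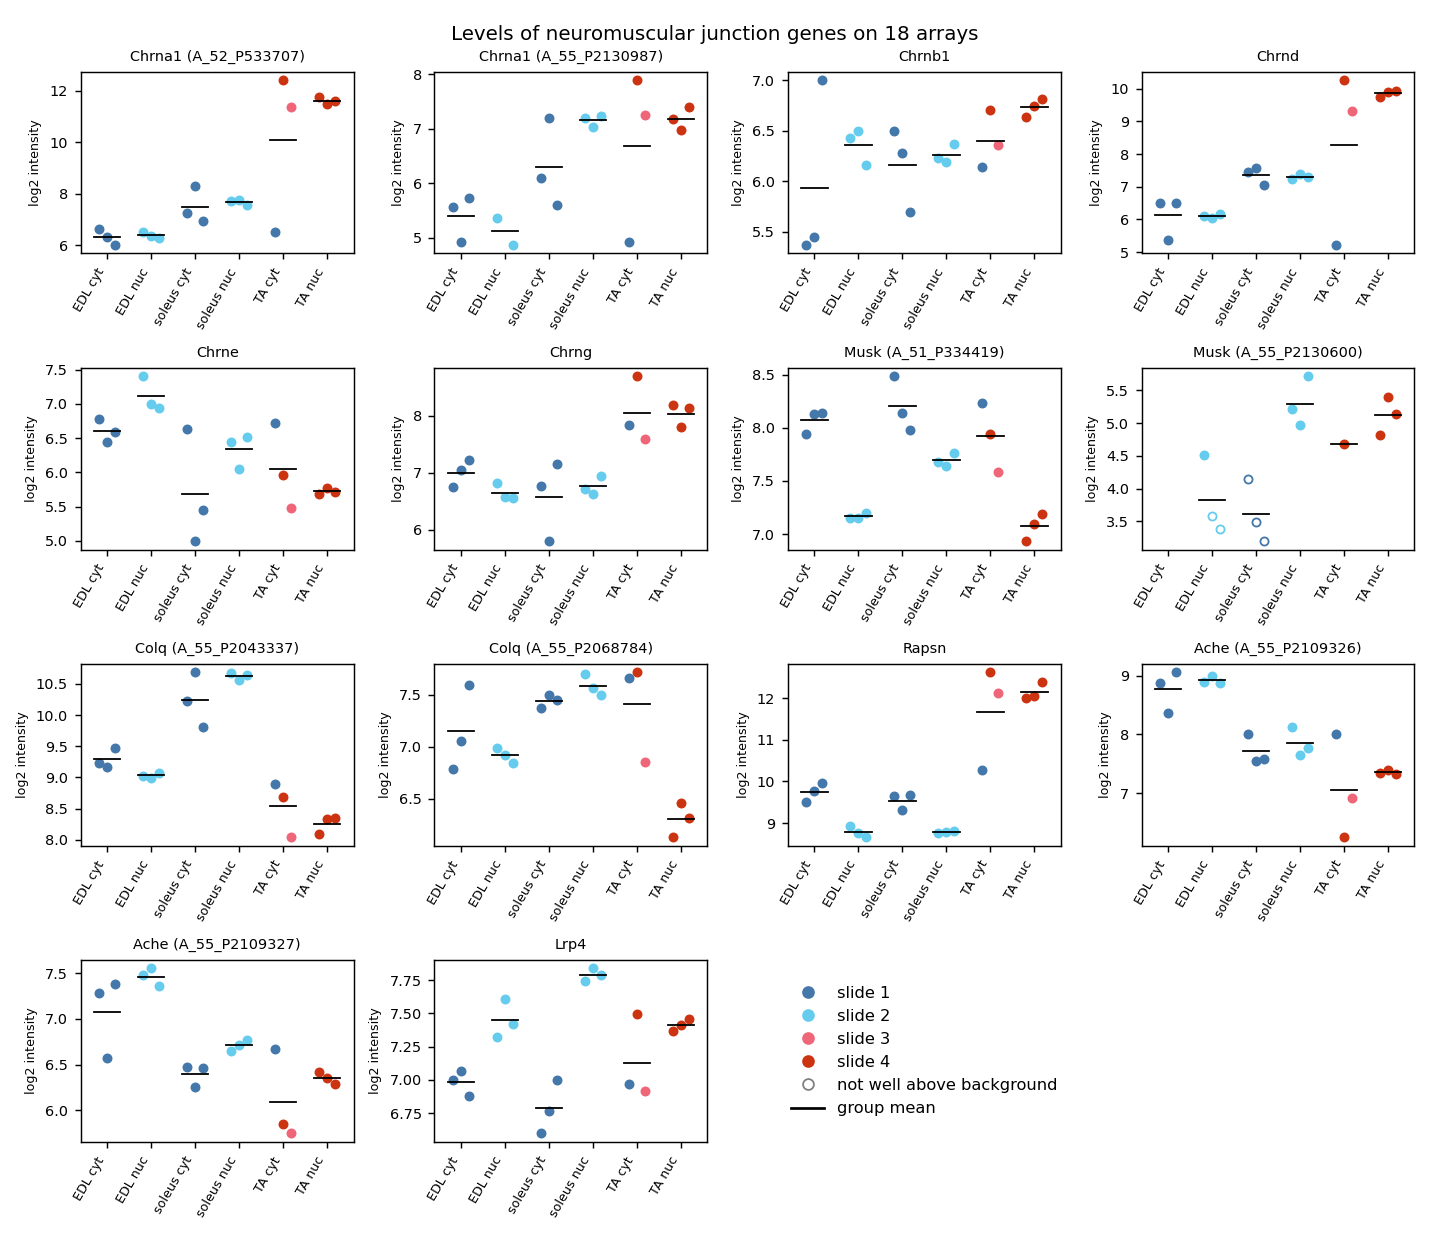
Log2 normalized intensity (vertical axis) of each of the 14 probes in the 6 groups of muscle and fraction (horizontal axis), 1 point per array, coloured by slide, with open points not well above background and a bar at the group mean. Chrna1 (A_52_P533707) and Chrnd stand above every EDL and soleus array on 5 of the 6 TA arrays and Rapsn on all 6, and TA cytoplasm 1 lies below the other 5.

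Chrna1 encodes the alpha subunit, which carries the acetylcholine binding site. With probe A_52_P533707, its level was 6.52, 6.37 and 6.27 in the 3 EDL nuclei arrays, 7.71, 7.74 and 7.55 in soleus nuclei, and 11.77, 11.48 and 11.59 in TA nuclei. The cytoplasm arrays gave 6.62, 6.33 and 6.00 in EDL and 7.25, 8.28 and 6.93 in soleus, against 6.51, 12.41 and 11.38 in TA. The 3 muscles did not overlap in nuclei, while in cytoplasm TA cytoplasm 1 lay among the EDL values and the other 2 TA arrays above all others. TA nuclei were 37.6-fold higher than EDL nuclei (log2 difference 5.23, SE 0.97, limma adjusted p = 0.00332) and 15.4-fold higher than soleus nuclei (3.95, SE 0.97, adjusted p = 0.0111). Without TA cytoplasm 1, which widens the spread shared by the fit, the differences were the same and the SE was 0.32. TA cytoplasm was 3.78 higher than EDL cytoplasm on the log2 scale (adjusted p = 0.022). That value was 5.58 without TA cytoplasm 1 and 0.19 with TA cytoplasm 1 as the only TA array, on the slide that held the EDL cytoplasm, and the call was lost without TA cytoplasm 2, TA cytoplasm 3 or any 1 EDL cytoplasm array. Soleus nuclei were 1.28 above EDL nuclei, which was not called (adjusted p = 0.828) but passed the threshold without TA cytoplasm 1 (SE 0.32).

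The other Chrna1 probe, A_55_P2130987, lies nearer the end of the transcript and gave another order. Its level was 5.37 and 4.87 in EDL nuclei, with 1 array missing as an outlier spot, 7.20, 7.04 and 7.23 in soleus nuclei, and 7.18, 6.98 and 7.40 in TA nuclei. Soleus and TA nuclei overlapped here, and both lay above EDL nuclei. Cytoplasm gave 5.57, 4.93 and 5.73 in EDL and 6.11, 7.19 and 5.6 in soleus, against 4.93, 7.89 and 7.26 in TA, so that TA cytoplasm 1 was again among the low values. TA nuclei were 4.18-fold higher than EDL nuclei (log2 difference 2.06, adjusted p = 0.0418), a call lost without any 1 of the TA nuclei or soleus nuclei arrays, EDL cytoplasm 1 or EDL nuclei 2. The pair of Chrna1 probes therefore differ on whether TA exceeded soleus: by 3.95 with the first probe and by 0.02 (SE 0.58) with the second.

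Chrnd encodes the delta subunit and followed the first Chrna1 probe. Its level was 6.11, 6.05 and 6.15 in EDL nuclei, 7.24, 7.40 and 7.29 in soleus nuclei, and 9.75, 9.90 and 9.94 in TA nuclei, with no overlap among the muscles. In cytoplasm it was 6.50, 5.38 and 6.49 in EDL and 7.45, 7.58 and 7.04 in soleus, against 5.21, 10.26 and 9.32 in TA. TA cytoplasm 1 held the lowest value of all 18 arrays, and TA cytoplasm 2 the highest. TA nuclei were 13.6-fold higher than EDL nuclei (log2 difference 3.76, SE 0.83, adjusted p = 0.00828) and 5.89-fold higher than soleus nuclei (2.56, adjusted p = 0.042), and the latter call was lost without any 1 array of EDL, soleus or TA nuclei. Without TA cytoplasm 1 the SE of both fell from 0.83 to 0.29, and TA cytoplasm was 3.66 above EDL and 2.44 above soleus cytoplasm, both then called. With TA cytoplasm 1 alone, the log2 difference of TA from soleus cytoplasm was -2.15, the opposite direction.

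Chrng and Chrne encode the fetal gamma and the adult epsilon subunit, and they differed in opposite directions between TA and EDL nuclei. The Chrng level was 6.81, 6.56 and 6.55 in EDL nuclei, 6.71, 6.62 and 6.93 in soleus nuclei, and 8.18, 7.79 and 8.12 in TA nuclei. Its cytoplasm level was 6.74, 7.04 and 7.22 in EDL and 6.76, 5.79 and 7.15 in soleus, against 7.84, 8.69 and 7.59 in TA. All 6 TA arrays lay above all 12 EDL and soleus arrays, TA cytoplasm 1 included. TA nuclei were 2.62-fold higher than EDL nuclei (log2 difference 1.39, SE 0.32, adjusted p = 0.00977) and 2.42-fold higher than soleus nuclei (1.28, adjusted p = 0.0119), and TA cytoplasm was 2.05-fold higher than EDL cytoplasm (1.04, adjusted p = 0.0445) and 2.77-fold higher than soleus cytoplasm (1.47, adjusted p = 0.00431). Within slide 1, TA cytoplasm 1 was 0.84 above EDL and 1.27 above soleus cytoplasm, and only the latter passed. Without TA cytoplasm 1 the differences were 1.14 and 1.57, both called. The EDL cytoplasm call was lost without any 1 array of EDL cytoplasm or of any of the nuclei, and without TA cytoplasm 2.

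The Chrne level was 7.40, 6.99 and 6.93 in EDL nuclei, 6.44, 6.05 and 6.52 in soleus nuclei, and 5.69, 5.77 and 5.71 in TA nuclei. The nuclei of the 3 muscles did not overlap, with EDL highest and TA lowest. The EDL cytoplasm arrays were at 6.79, 6.44 and 6.59, those of soleus at 6.63, 4.99 and 5.45 and those of TA at 6.72, 5.96 and 5.48, and all muscles overlapped. TA nuclei were 2.61-fold lower than EDL nuclei (log2 difference -1.39, adjusted p = 0.0173), which was lost without EDL nuclei 1, TA nuclei 1 or TA nuclei 3. Soleus minus EDL was -0.78 in nuclei (SE 0.36, adjusted p = 0.503) and -0.92 in cytoplasm (adjusted p = 0.254), neither called. Chrnb1, the beta subunit, showed no call in any comparison: its group means were close, and its 18 values ran from 5.37 to 7.00, both on EDL cytoplasm arrays.

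Rapsn encodes rapsyn, the scaffold that holds the receptors in clusters, and was higher in TA than in both other muscles. Its level was 8.92, 8.76 and 8.66 in EDL nuclei, 8.76, 8.79 and 8.81 in soleus nuclei, and 12.01, 12.05 and 12.40 in TA nuclei. Its cytoplasm level was 9.51, 9.76 and 9.97 in EDL and 9.65, 9.31 and 9.66 in soleus, against 10.27, 12.62 and 12.13 in TA. EDL and soleus overlapped in both fractions, and every TA array lay above them. TA nuclei were 10.4-fold higher than EDL nuclei (log2 difference 3.37, SE 0.41, adjusted p = 0.000214) and 10.3-fold higher than soleus nuclei (3.36, SE 0.41, adjusted p = 8.36e-05). TA cytoplasm was 1.93 above EDL (adjusted p = 0.00996) and 2.13 above soleus cytoplasm (adjusted p = 0.00204). Without TA cytoplasm 1 these were 2.63 and 2.83. The difference from EDL cytoplasm was 0.53, not called, with TA cytoplasm 1 alone, and the call was lost without TA cytoplasm 2.

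**Figure D2:**
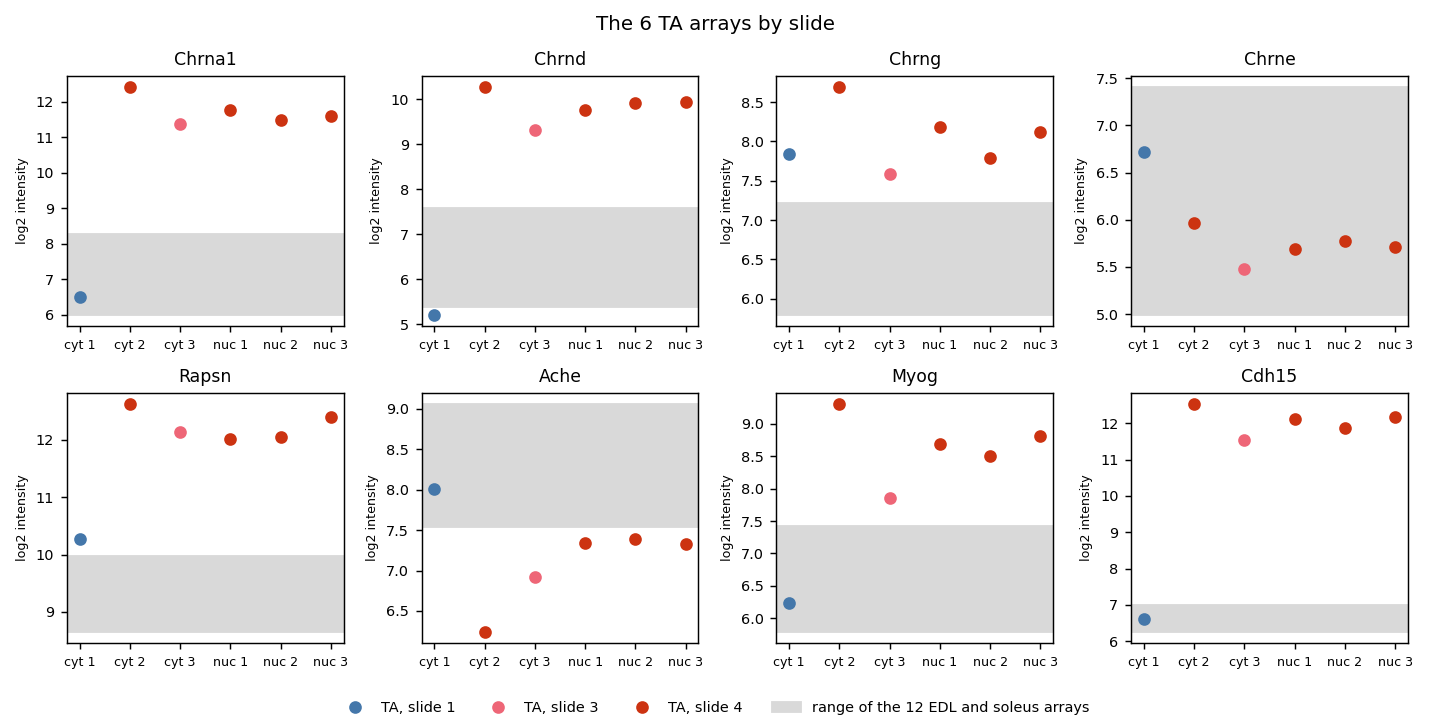
Log2 normalized intensity (vertical axis) on the 6 TA arrays for 6 member probes and for Myog and Cdh15, coloured by slide, with the grey band the range of the 12 EDL and soleus arrays. TA cytoplasm 1, on slide 1, lies in or near the band for Chrna1 and Cdh15, while the 5 arrays of slides 3 and 4 lie above it.

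The slides split the TA arrays in the same way as these levels. Of the 12 member probes with a value on every array, 3 (Chrna1 A_52_P533707, Chrnd and Rapsn) were higher on all 5 TA arrays of slides 3 and 4 than on the other 13 arrays, 2 (Colq A_55_P2043337 and Ache A_55_P2109326) were lower, and 7 overlapped, where 9.55% of all probes did not overlap in this way, 6.23% higher and 3.32% lower. TA cytoplasm 1 drew on mouse 5, as did TA cytoplasm 2, and on mouse 1, as did TA nuclei 1, and its Chrna1 level of 6.51 stood beside 12.41 and 11.77 on those arrays. Within slide 1, 0 of 13 member probes passed between TA cytoplasm 1 and EDL cytoplasm by limma, where 1.02% of all probes did. In such a fit the lone array is assumed to vary like the other groups.

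Cdh15, a marker of satellite cells, the muscle stem cells that lie on the fiber, was split by slide like Chrna1 A_52_P533707, Chrnd and Rapsn. It was higher on the 5 TA arrays of slides 3 and 4 than on all others, as were 6.23% of all probes. On TA cytoplasm 1 it lay among the EDL and soleus values, while Chrng and Rapsn lay above all of those. Over a list of 5 satellite cell markers, chosen with earlier results known, 2 of 4 probes tested were higher in TA than in EDL nuclei and none was called lower, against 7.59% and 9.81% of all probes. Cdh15, which encodes M-cadherin, was 5.59 higher on the log2 scale (SE 0.96, adjusted p = 0.00205), at 11.55 to 12.53 on the 5 TA arrays of slides 3 and 4, 6.60 on TA cytoplasm 1, and 6.26 to 7.00 elsewhere. Pax7, the defining transcription factor of these cells, was not well above background on any EDL nuclei array and was at least 2.45-fold higher in TA nuclei (adjusted p = 0.0129 for the measured means). The pair of probes of Vcam1, an adhesion molecule, were at 0.63 and -0.84 (adjusted p = 0.185 and 0.277), and Calcr was not well above background on any array. Pax7 overlapped between soleus nuclei, at 5.23, 4.88 and 4.71, and TA nuclei, at 4.79, 5.32 and 5.98. Between TA and soleus nuclei, 1 of 4 probes of the list was higher and 0 lower, against 7.75% and 11.9% of all probes. The summed level of the list was 11.94 to 12.24 in TA nuclei, 7.25 to 12.56 in TA cytoplasm, 7.29 to 7.57 in EDL nuclei and 7.99 to 8.15 in soleus nuclei. Cdh15 alone was at 11.88 to 12.19 in TA nuclei and 12.53 on TA cytoplasm 2, and so made up most of the sum there. The part of the list in the TA levels of Chrna1, Chrnd, Chrng and Rapsn was not tested.

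Lrp4 and Musk encode the agrin receptor and the kinase it activates. Lrp4 and Musk probe A_51_P334419 differed between fractions in opposite directions, while the other, dim Musk probe had the direction of Lrp4 in soleus. The Lrp4 level was 7.00, 7.06 and 6.88 in EDL cytoplasm and 7.32, 7.61 and 7.42 in EDL nuclei, 6.60, 6.76 and 7.00 in soleus cytoplasm and 7.74, 7.84 and 7.79 in soleus nuclei, and 6.97, 7.50 and 6.91 in TA cytoplasm and 7.36, 7.41 and 7.46 in TA nuclei. Nuclei lay above cytoplasm without overlap in EDL and soleus, where 66.3% and 56.5% of all probes did not overlap. TA overlapped through TA cytoplasm 2. Over the 3 muscles Lrp4 was 1.50-fold higher in nuclei (log2 difference 0.59, SE 0.10, adjusted p = 0.000126), with 2.01-fold in soleus (1.00, SE 0.18, adjusted p = 0.000523) and 1.38-fold in EDL (0.47, SE 0.18, adjusted p = 0.0434). The EDL call was lost with the replicate number as a block (SE 0.19), by Significance Analysis of Microarrays, and without any 1 array of EDL cytoplasm or of any of the nuclei. Lrp4 was the member probe higher in nuclei over the 3 muscles, and 2 were lower, of 13 tested, while 69.8% of all probes passed, 31.2% higher and 38.6% lower.

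Musk probe A_51_P334419 had a level of 7.94, 8.13 and 8.14 in EDL cytoplasm and 7.15, 7.16 and 7.20 in EDL nuclei. In soleus it was 8.49, 8.14 and 7.98 in cytoplasm and 7.67, 7.64 and 7.77 in nuclei, and in TA 8.24, 7.94 and 7.58 in cytoplasm and 6.93, 7.10 and 7.19 in nuclei. Nuclei lay below cytoplasm without overlap in each muscle, where the fractions of 66.3%, 56.5% and 60.2% of all probes did not overlap in EDL, soleus and TA. Over the 3 muscles Musk was 1.69-fold lower in nuclei (log2 difference -0.75, SE 0.11, adjusted p = 1.7e-05), but without scaling between arrays, when the median of all probes moved up by 0.50, the difference was -0.06 and was not called. EDL gave a log2 difference of -0.90 (SE 0.19, adjusted p = 0.00118), and TA one of -0.85 (SE 0.19, adjusted p = 0.00152). In soleus it was -0.51 (adjusted p = 0.0406), but 0.70 without scaling, when the median of all probes was 0.96, so that Musk was lower only relative to that median. The soleus call was also lost with the replicate number as a block (SE 0.21), by Significance Analysis of Microarrays, and without soleus cytoplasm 1, TA nuclei 2 or any 1 of the EDL or soleus nuclei arrays. In nuclei, TA was 1.54-fold below soleus (log2 difference -0.62, adjusted p = 0.0308), a call lost without any 1 array of those 2 groups.

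The second Musk probe, A_55_P2130600, was dim and gave the opposite direction between fractions in soleus. It had no value in EDL cytoplasm and was not well above background in any soleus cytoplasm array, at 4.14, 3.49 and 3.20, while soleus nuclei were at 5.21, 4.97 and 5.71. Soleus nuclei were thus at least 1.86-fold higher than cytoplasm, with the cytoplasm taken at the lowest signal well above background (adjusted p = 0.00279 for the measured means). In TA it was 4.82, 5.40 and 5.14 in nuclei and had a value on 1 of 3 cytoplasm arrays, 4.68. TA nuclei were 1.29 higher than EDL nuclei on the log2 scale (adjusted p = 0.0283), where 1 of 3 EDL nuclei arrays was well above background, and the call was lost without EDL nuclei 2, EDL nuclei 3, TA nuclei 2 or TA nuclei 3.

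**Figure D3:**
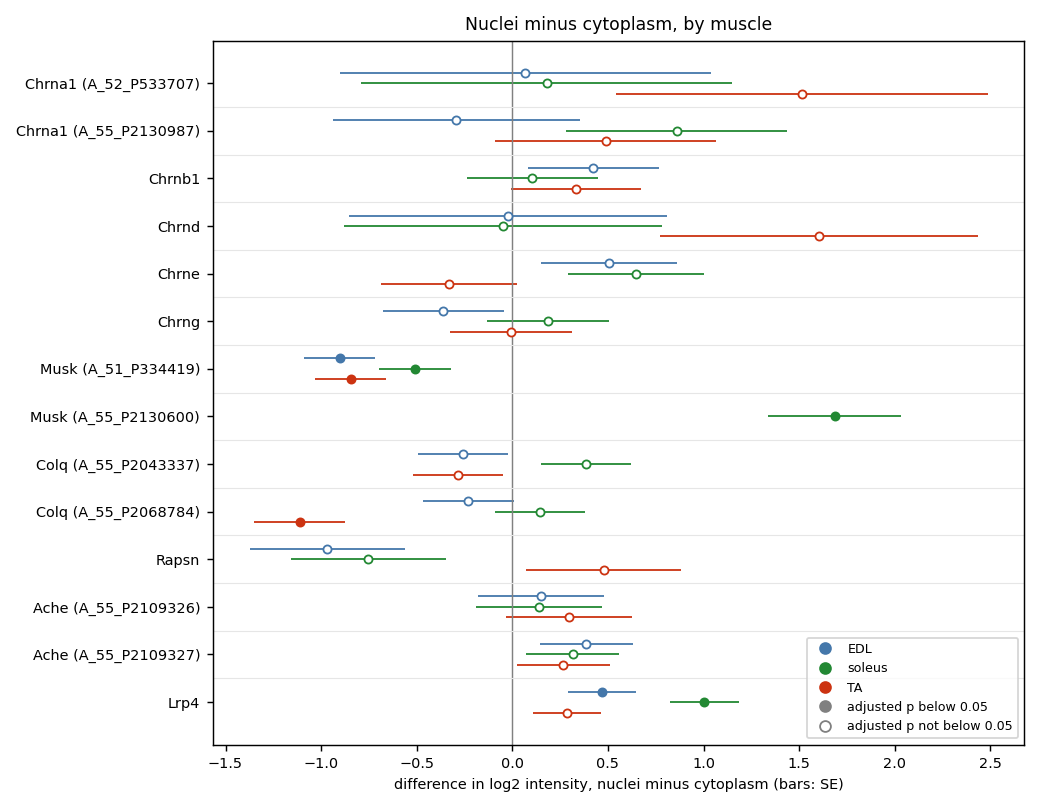
Nuclei minus cytoplasm in log2 (horizontal axis) for each member probe in EDL, soleus and TA, with bars of 1 standard error from the limma fit and filled points where the adjusted p was under 0.05. Musk A_51_P334419 lies below 0 in each muscle, and Lrp4 lies above 0, with its largest value, 1.00, in soleus.

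Ache encodes the acetylcholinesterase that ends the signal, and both its probes had the order EDL, soleus, TA. With probe A_55_P2109326 its level was 8.89, 9.00 and 8.88 in EDL nuclei, 8.12, 7.65 and 7.78 in soleus nuclei, and 7.35, 7.39 and 7.33 in TA nuclei, without overlap. In cytoplasm it was 8.88, 8.37 and 9.06 in EDL and 8.01, 7.54 and 7.58 in soleus, against 8.01, 6.24 and 6.92 in TA, where TA cytoplasm 1 was close to soleus cytoplasm 1. TA was below EDL by 2.97-fold in nuclei (log2 difference -1.57, adjusted p = 0.00628) and by 3.29-fold in cytoplasm (-1.72, adjusted p = 0.00662). The cytoplasm difference was -2.19 without TA cytoplasm 1, and within slide 1, with TA cytoplasm 1 alone, -0.76 and not called. Probe A_55_P2109327 gave -1.11 in nuclei (adjusted p = 0.00794) and -0.99 in cytoplasm (adjusted p = 0.0188; -1.28 without TA cytoplasm 1), the latter lost without EDL cytoplasm 1, EDL cytoplasm 3, TA cytoplasm 2 or TA cytoplasm 3. Soleus minus EDL nuclei was -1.07 with the first probe (SE 0.33, adjusted p = 0.162), which passed the threshold without TA cytoplasm 1 (SE 0.22). Markers of Schwann cells were lower beside Chrne and Ache, as were markers of some other kinds. Of 8 Schwann cell probes, 4 were lower in TA than in EDL nuclei, where 9.81% of all probes were. There, 4 of 9 myofiber and 2 of 5 fibroblast probes were also lower and none higher, while of 6 endothelial probes 1 was higher and 0 lower. In soleus nuclei 2 of the 8 Schwann cell probes were lower than in EDL nuclei, where 0.579% of all probes were. The summed level of these markers was 11.09 to 11.13 in EDL nuclei, 9.85 to 10.01 in soleus nuclei and 9.69 to 9.85 in TA nuclei. In cytoplasm that sum was 9.70 to 9.92 in EDL, 9.00 to 9.58 in soleus and 9.05 to 9.28 in TA, and its part in these levels was not tested. Of the neuron markers, 1 of 4 probes tested was higher in TA than in EDL nuclei and none lower, against 7.59% and 9.81% of all probes. The higher probe was that of Chat, which encodes choline acetyltransferase, at 0.63 (adjusted p = 0.0274). Syt1 was not well above background on any array, and the summed level of that list was 14.78 to 15.13 over all groups.

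Colq encodes the collagen tail that fixes the esterase in the synaptic basal lamina, and was the one member called between soleus and EDL. With probe A_55_P2043337 its level was 9.03, 8.99 and 9.07 in EDL nuclei, 10.67, 10.55 and 10.65 in soleus nuclei, and 8.10, 8.33 and 8.35 in TA nuclei. In cytoplasm it was 9.24, 9.16 and 9.47 in EDL and 10.23, 10.69 and 9.81 in soleus, against 8.90, 8.68 and 8.04 in TA. Soleus was highest and TA lowest in both fractions, without overlap. Soleus nuclei were 3.02-fold higher than EDL nuclei (log2 difference 1.59, SE 0.24, adjusted p = 0.00166), and soleus cytoplasm was 0.95 higher than EDL cytoplasm (SE 0.24, adjusted p = 0.0609). TA nuclei were 5.16-fold lower than soleus nuclei (log2 difference -2.37, adjusted p = 1.66e-05), and TA cytoplasm was 3.25-fold lower than soleus cytoplasm (-1.70, adjusted p = 0.000251), with -1.88 without TA cytoplasm 1 and -1.34 for TA cytoplasm 1 alone within slide 1. TA minus EDL was -0.77 in nuclei (adjusted p = 0.036), lost without any 1 array of either group, and -0.75 in cytoplasm (adjusted p = 0.0495), lost in 15 of 18 fits that each left out 1 array, and -0.93 and called without TA cytoplasm 1.

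The other Colq probe, A_55_P2068784, lies upstream in the transcript and differed between fractions in TA. It was 7.66, 7.72 and 6.85 in TA cytoplasm and 6.13, 6.46 and 6.31 in TA nuclei, with no overlap, against 6.78 to 7.60 in EDL cytoplasm, 6.84 to 6.99 in EDL nuclei, 7.37 to 7.50 in soleus cytoplasm and 7.50 to 7.70 in soleus nuclei. TA nuclei were 2.16-fold below TA cytoplasm (log2 difference -1.11, SE 0.24, adjusted p = 0.00118), and 2.44-fold below soleus nuclei (-1.29, adjusted p = 0.00209). Within slide 4, which held TA nuclei and TA cytoplasm 2, the fractions differed by -1.42 for this probe and by -0.86 for Musk A_51_P334419, with the lone cytoplasm array assumed to vary like the other groups. Without TA cytoplasm 1 they were -0.99 and -0.69. Significance Analysis of Microarrays called neither in TA. Over the 3 muscles the Colq difference was -0.40 (SE 0.14, adjusted p = 0.0169), but 0.24 without scaling, when the median of all probes was 0.42.

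In EDL, 1 member probe was higher and 1 lower of 13 in nuclei than in cytoplasm, where 46.6% of all probes passed, 20.0% higher and 26.5% lower. In soleus 2 were higher and 1 lower of 14, against 40.3%, 18.7% higher and 21.7% lower. In TA 0 were higher and 2 lower of 13, against 52.7%, 19.2% higher and 33.5% lower. These shares lie below those of all probes in each muscle, and nuclear RNAs such as Malat1 and Neat1 marked the fraction: 5 of 6 probes of that list were higher in nuclei over the 3 muscles, and the other, a Meg3 probe, was lower at -0.51. The fractions did not differ between muscles for any member at the threshold by limma's moderated F test (0 of 13, with 3 at an unadjusted p under 0.05, and 1.57% of all probes passed). Chrna1, Chrnd and Rapsn did not pass between fractions in TA, at 1.51, 1.60 and 0.48 on the log2 scale, and without TA cytoplasm 1 the values were -0.28, 0.08 and -0.22. For Rapsn, EDL nuclei minus cytoplasm was -0.97, without overlap (adjusted p = 0.062), a difference that passed with the replicate number as a block (SE 0.34), by Significance Analysis of Microarrays, without TA cytoplasm 1 and without TA cytoplasm 2.

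**Figure D4:**
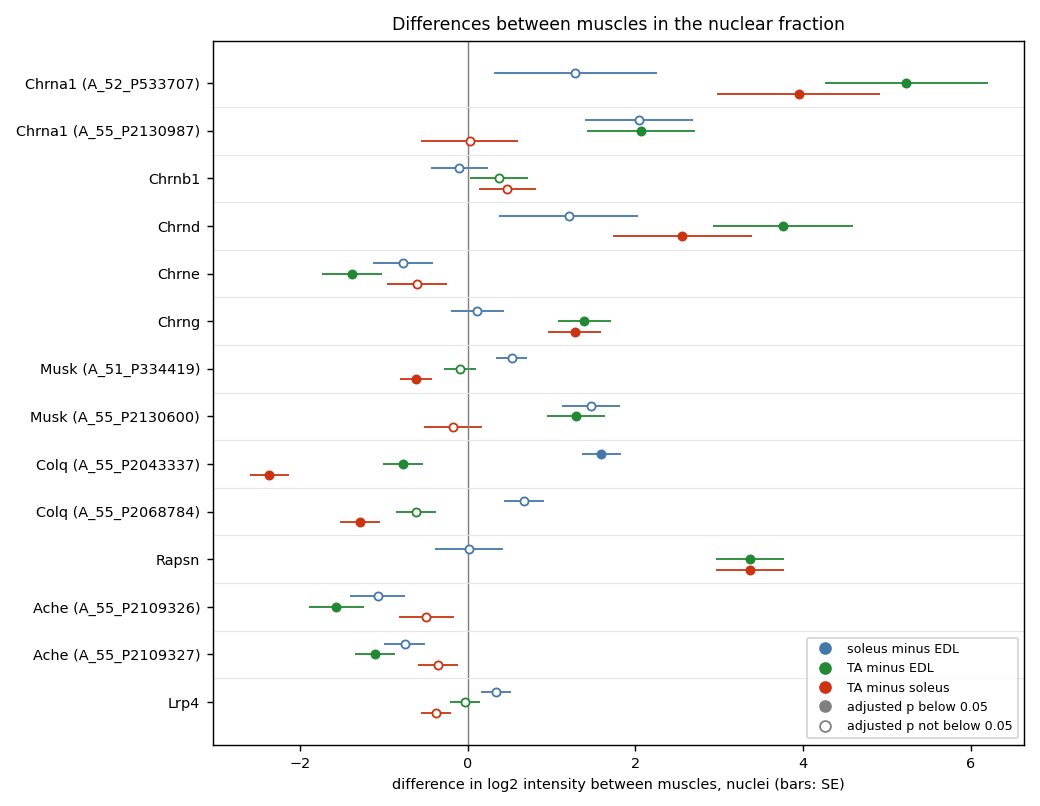
Differences between muscles in nuclei, in log2 (horizontal axis), for each member probe: soleus minus EDL, TA minus EDL and TA minus soleus, with bars of 1 standard error and filled points where the adjusted p was under 0.05. Chrna1 A_52_P533707 has the largest TA minus EDL difference, 5.23, and Colq A_55_P2043337 is the filled point in soleus minus EDL.

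Other genes of the junction were taken as 5 lists of 36 genes, all on the array, chosen with earlier results of these data known. Over the 3 muscles, 27 of 44 probes tested were higher in nuclei and 2 were lower, against 31.2% and 38.6% of all probes. This was not particular to junction genes. Of the marker lists, 7 of 9 myofiber, 5 of 5 fibroblast and 5 of 6 endothelial probes were higher and none lower. Other lists went the other way, with 3 of 4 neuron and 3 of 5 macrophage probes lower and none higher. Of the clustering-signal genes, 8 of 12 probes were higher and none lower (median 0.81 on the log2 scale, where the median of all probes was -0.08 and that of the members 0.27). Agrn, which encodes agrin, was 1.53 higher (SE 0.21, adjusted p = 1.13e-05), while Dok7, the cytoplasmic activator of MuSK, was at 0.16 (adjusted p = 0.551). Of the scaffold genes, 5 of 9 probes were higher, with Utrn, which encodes utrophin, 2.09 higher (adjusted p = 1.55e-09). Of the basal lamina genes 5 of 6 were higher, with Nid2, which encodes nidogen-2, at 1.25 (adjusted p = 1.91e-05). Of the neuregulin and ETS genes 3 of 8 probes were higher and 1 lower, the last Etv5, an ETS factor, at -0.63 (adjusted p = 0.000366) but 0.16 without scaling between arrays. Of the activity-dependent regulators 6 of 9 were higher, with Sik1, a kinase acting on class II histone deacetylases, at 2.24 (adjusted p = 1.69e-06).

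Between TA and EDL nuclei, 7 of 47 probes of these lists were higher and 6 lower, where 7.59% and 9.81% of all probes were. The neuregulin and ETS list held 4 of the 7: Nrg1, which encodes neuregulin-1, at 2.53 on the log2 scale (adjusted p = 0.00704, with 1 of 3 EDL nuclei arrays well above background), Erbb2, a neuregulin receptor, at 1.14 (adjusted p = 0.0249), and both probes of Etv4, an ETS factor. These were 1.25 higher (A_55_P2078780, adjusted p = 0.0101) and, with no EDL nuclei array well above background, at least 8.43-fold higher (A_55_P1959521, adjusted p = 0.0099 for the measured means). Dok7 was 1.35 higher (adjusted p = 0.0315) and Myog, which encodes myogenin, 1.95 higher (adjusted p = 0.0165). Against soleus nuclei Myog was 1.30 higher (adjusted p = 0.0781). Of the basal lamina genes Lama5 was 1.77 higher (adjusted p = 0.00702), and Lamb2, the synaptic laminin chain, was at -1.02 (adjusted p = 0.00208). The 6 lower probes were 3 of the basal lamina list, Lamb2 included, 2 of the activity-dependent regulators and 1 of the scaffold list.

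Correlations over the 18 arrays were taken with the 35528 probes that had a value on each. Probes named only by a probe, lincRNA, chromosome or transcript identifier were left out of the ranking. Among other genes with a symbol, the pattern of Chrna1 A_52_P533707 was most like those of Cd82 (r = 0.990), Sh3bgrl3 (0.989) and Rpl3 (0.988). That of Chrne was most like Wnk2 (0.907), Gm5473 (0.895) and Sox6 (0.891), and that of Ache A_55_P2109326 most like Gm4949 (0.965), Bpgm (0.950) and Sar1b (0.938). These correlations describe arrays that fall into clusters by slide and muscle, and carry no test.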

How the data were processed

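The 18 samples were grouped by muscle and fraction from the labels, 3 per group. Per the file headers, Agilent Feature Extraction 10.7.3.1 had made the deposited intensity per spot, corrected for background, with no scaling between arrays. The authors' deposited table of quantile-normalized values held none of the 14 member probes and was not used. The members and gene lists were chosen with earlier results of these data known.

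The deposited intensity was taken to log2. The 3671 control spots were left out, and of the other 59305 spots those not flagged as positive and significant and outlier spots were set to missing. Arrays were quantile-normalized, spots averaged by probe name, and a model of 6 group means was fitted. The software was limma 3.58.1, R 4.3.3 and the R package data.table in version 1.17.8. The fit had 12 residual and 3.27 prior degrees of freedom. A probe was tested with values on at least 2 of 3 arrays in each group involved. All p-values are 2-sided, from limma's moderated tests, adjusted by Benjamini and Hochberg over all probes tested, with a threshold of 0.05. Where no array of a group was well above background, the fold is a bound from the lowest signal well above background. Every member was named, and other genes by the lists; 1 listed gene and 1 probe sequence are not reported here. In simulated data with 200 of 35528 probes changed by 2 on the log2 scale, 96.5% were recovered for nuclei against cytoplasm over the 3 muscles, 82.0% for TA against EDL in nuclei, 85.0% for TA against soleus in nuclei and 60.5% for the interaction. The simulated arrays were independent, and each probe had the same spread in all groups. In the data the median standard deviation within a group ran from 0.11 in soleus nuclei to 0.40 in TA cytoplasm, so these rates may not hold for them. The alternatives were 75th percentile scaling, no scaling, normexp on the mean signal with an offset of 50, other flags and filters, the replicate block, averaged nuclear arrays, Significance Analysis of Microarrays, fits within a slide, and leaving out each array. The fit with TA cytoplasm 1 alone within slide 1 was chosen after the data had been seen. Deviations of same-numbered arrays from their group means correlated at -0.11 to 0.13 over 15 pairs. The number of arrays limits the precision. Sequences were handled with Python 3.11.15 (pandas 2.3.3) and figures drawn with matplotlib 3.10.9 and numpy 2.4.6.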

Additional observations from a re-analysis of the deposited data

How the results depend on the processing

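Counts are of member probes called. For nuclei against cytoplasm, the reported counts of 3 over the 3 muscles, 2 in EDL, 3 in soleus and 2 in TA became 9, 4, 11 and 2 without scaling between arrays. That setting gave 4 for soleus against EDL in nuclei, 1 in cytoplasm, 5 for TA against soleus in cytoplasm and 5 for the interaction. Without scaling, 4 differences changed sign: Chrng 0.59, Colq A_55_P2043337 0.69 and Colq A_55_P2068784 0.24 over the 3 muscles, where the median of all probes was 0.42, and Musk A_51_P334419 0.70 in soleus, where it was 0.96. Relative to that median they were 0.17, 0.27, -0.18 and -0.26. With the flag for positive and significant signal not used, the counts were 5 over the 3 muscles, 4 in TA and 1 for soleus against EDL cytoplasm. Scaling to the 75th percentile gave 2 for soleus against EDL nuclei and 1 in cytoplasm, and normexp gave 1 in cytoplasm. With only spots well above background, soleus had 1 and TA against soleus cytoplasm 5. With nuclei counted as 1 averaged sample per muscle, 1 probe was called over the 3 muscles and 0 in EDL, soleus, TA, soleus against EDL nuclei, TA against EDL nuclei, TA against EDL cytoplasm and TA against soleus nuclei. Significance Analysis of Microarrays called 0 in TA. TA cytoplasm 2 and 3 alone, scanned with the TA nuclei, gave 4 in TA. TA cytoplasm 1 alone, within slide 1, gave 0 against EDL cytoplasm, and a Chrnd difference of -2.15 against soleus cytoplasm.

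With the replicate number as a block, the counts were 4 over the 3 muscles, 2 in EDL, 2 in soleus, 2 in TA, 1 and 0 for soleus against EDL nuclei and cytoplasm, and 0 for the interaction. The numbers mark shared mice in EDL and soleus and, for numbers 1 and 2, within TA, and TA against another muscle could not be fitted with the block. Mice 3 and 5, which TA shared with EDL and soleus, were not accounted for by the block. Beside the calls named in the report, the block added Ache A_55_P2109327 over the 3 muscles (0.32, SE 0.13). Leaving out 1 array at a time gave 3 to 6 over the 3 muscles, 1 to 3 in EDL, 2 to 4 in soleus, 2 to 6 in TA, 1 to 6 for soleus against EDL nuclei, 0 to 3 in cytoplasm, 6 to 11 for TA against EDL nuclei, 1 to 8 in cytoplasm, 5 to 7 for TA against soleus nuclei, 3 to 8 in cytoplasm, and 0 to 1 for the interaction. Without TA cytoplasm 1 alone, 22 single differences passed the threshold that did not with it. The cause of these changes was not tested. The deposited table gave no value for any member.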

Other observations

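Other genes were looked at after the values of the members had been seen, and are given as values only. Runx1, a transcription factor, was at 7.52 to 8.52 with probe A_55_P2183438 on the 5 TA arrays of slides 3 and 4, 3.24 on TA cytoplasm 1, and 3.21 to 5.63 on the EDL and soleus arrays, while its other probe, A_51_P206585, was at 3.87 to 4.49 on those 5 arrays against 4.12 to 6.34 on the EDL and soleus arrays. Ncam1, which encodes a neural cell adhesion molecule, was at 6.58 to 7.97 with probe A_55_P2050602 against 2.35 to 4.54 where it had a value on EDL and soleus arrays, and its other probes overlapped. Myh3, the embryonic myosin heavy chain, was at 9.76 to 12.39 with probe A_55_P2083406, 3.98 on TA cytoplasm 1, and 3.94 to 8.97 on the EDL and soleus arrays, and its other probe overlapped.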
